A study of Mus musculus with 4 samples.

Results

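Trp53, which encodes the transcription factor p53, and 29 genes known as its targets were followed through single-cell RNA-seq of mammary tumour formation in mice. The 30 members were picked by gene symbol from the 27998 genes listed for all 4 libraries, and every member was present. They comprised Trp53 itself, 3 feedback genes (Mdm2, Mdm4, Ccng1), 3 cell cycle arrest genes (Cdkn1a, Btg2, Plk2), 6 genes of the mitochondrial death pathway (Bbc3, Bax, Pmaip1, Ei24, Apaf1, Pidd1), 5 other death and survival genes (Phlda3, Zmat3, Trp53inp1, Aen, Perp), 3 death receptors (Eda2r, Tnfrsf10b, Fas), 4 DNA repair genes (Polk, Rrm2b, Ddb2, Xpc) and 5 stress and metabolism genes (Sesn1, Sesn2, Gdf15, Dram1, Ddit4l).

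All mice were Trp53L/L;Brca1L/L;R26Y females of mixed background, that is, with floxed Trp53 and Brca1 alleles and a YFP reporter that Cre switches on at the Rosa26 locus. Cre came from an adenovirus with a keratin 8 promoter (Ad-K8-Cre) injected into the milk ducts, which aims at luminal epithelial cells, and no library without the floxed alleles or without virus was analysed here. Tumour 1 and tumour 2 were DAPI-negative live cells of tumour masses, the 5 months library held YFP+ mammary epithelial cells with CD45+ leukocytes sorted about 5 months after injection, and the 2 weeks library held YFP+ mammary epithelial cells sorted about 2 weeks after injection. The labels give neither the mice per library nor the ages, nor the exons that Cre removes. The tumours were taken without a YFP gate, so recombined and intact cells of a tumour cannot be told apart here.

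As background, p53 is kept low by Mdm2, a ubiquitin ligase that p53 itself induces, and by the related Mdm4. After DNA damage p53 escapes this loop, binds a pair of decamers in or near its target genes and raises genes that stop the cell cycle, start apoptosis, repair DNA or adapt metabolism. Many targets are also driven by other factors, so they keep a level without p53. Loss of p53 together with BRCA1, a protein of homologous recombination repair, is typical of basal-like breast cancer.

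The 10-base p53 consensus was looked up in RefSeq promoter windows (GRCm38.p6, 250 bases before to 50 after a start). It reads the same on both strands. Windows were held for 22 members and not for Pmaip1, Zmat3, Trp53inp1, Perp, Tnfrsf10b, Rrm2b, Ddb2 and Xpc. A decamer was found in 10 members, in 11 of 30 member windows (36.7%) against 8.36% of 32851 windows of all genes. A pair of decamers at most 13 bases apart, with at most 1 mismatch in each and 2 in all, was found in 1 member, Cdkn1a, and in 1.39% of all windows. The stretches below belong to the 7 members with a decamer whose level differed between the 2 barcode classes compared further on, shown 5′ to 3′ on the gene's strand with decamers, and the mismatched member of a Cdkn1a pair, in capitals.
Trp53, chr11:69580259-69580318, plus strand: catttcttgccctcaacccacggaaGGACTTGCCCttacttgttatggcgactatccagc
Cdkn1a, chr17:29090881-29090962, plus strand: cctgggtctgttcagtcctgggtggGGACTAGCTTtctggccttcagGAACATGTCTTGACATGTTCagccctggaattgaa
Mdm2, chr10:117710910-117710969, minus strand: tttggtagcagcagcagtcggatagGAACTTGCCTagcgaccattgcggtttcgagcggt
Ccng1, chr11:40755437-40755496, minus strand: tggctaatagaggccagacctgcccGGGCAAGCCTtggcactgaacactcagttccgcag
Bax, chr7:45467065-45467124, minus strand: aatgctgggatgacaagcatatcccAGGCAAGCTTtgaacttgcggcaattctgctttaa
Sesn1, chr10:41887241-41887300, plus strand: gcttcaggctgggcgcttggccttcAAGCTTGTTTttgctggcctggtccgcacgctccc
Ddit4l, chr3:137623557-137623616, plus strand: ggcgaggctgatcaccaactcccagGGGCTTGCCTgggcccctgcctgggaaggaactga
Cdkn1a holds 2 such pairs. Decamers without mismatch start 73 and 51 bases before the upstream one of its annotated starts and form the first pair. The second of these decamers forms another pair with an abutting decamer that has 1 mismatch. The Cdkn1a window at the downstream start (chr17:29093519-29093818) holds no decamer. The single decamers of the other 6 start 75 (Trp53) to 201 (Bax) bases before an annotated start of each gene. A further Sesn1 window (chr10:41810324-41810623) holds none. The windows of Phlda3, Plk2, Apaf1 and Btg2 hold none, and a match or its lack describes these letters only.

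UMIs, which count captured RNA molecules, were summed over classes of barcodes with at least 500 genes and at most 10% mitochondrial UMIs. Keratin barcodes had at least 3 UMIs of Krt8 and Krt18 together and none of Ptprc, the gene of CD45, and stand for the epithelium at which deletion was aimed. Ptprc barcodes had at least 1 Ptprc UMI and stand for leukocytes with intact alleles. Keratin barcodes numbered 1133 (2 weeks), 431 (5 months), 397 (tumour 1) and 415 (tumour 2), with 2139096 to 6614697 UMIs per library. Ptprc barcodes numbered 2348, 1518 and 733 in the 5 months, tumour 1 and tumour 2 libraries, with 4858941 to 11490371 UMIs, but only 7 at 2 weeks, which therefore has no leukocyte value. Between 8 and 21 barcodes per library sat just inside the keratin threshold (3 UMIs) and 18 to 39 just outside it (2 UMIs). All 8 epithelial markers were higher and all 9 leukocyte markers lower in keratin barcodes. Krt8, Krt18 and Ptprc are among these markers and in the sums that follow. The class rule set their side, so they check nothing. Summed leukocyte markers in keratin barcodes came to 2.44% to 3.46% of their level in Ptprc barcodes, and summed epithelial markers in Ptprc barcodes to 3.63%, 6.70% and 11.4% of their level in keratin barcodes of the 5 months, tumour 1 and tumour 2 libraries. A setting with little leukocyte RNA kept keratin barcodes with at most 1 UMI of 5 leukocyte genes. It kept 1132 of 1133 (2 weeks), 400 of 431 (5 months), 59 of 397 (tumour 1) and 258 of 415 (tumour 2). Libraries shared 2 to 16 barcode sequences pairwise. Levels are given as CPM, a gene's UMIs per 1000000 UMIs of the class, with 95% Poisson intervals that cover counting error only. In these sums, fewer cells that express a gene and less RNA per cell cannot be told apart.

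Trp53 RNA was present in the keratin barcodes of every library. The gene lies at chr11:69580359-69591873 (GRCm38, plus strand), and its 3′ tags come from near the last exon (exon 11, 69591254 to 69591872). Since the deleted exons are not given, these tags check nothing about the deletion. In keratin barcodes Trp53 had 56.2 CPM (49.98 to 62.9, 298 UMIs) at 2 weeks, 36.9 CPM (29.2 to 46.0, 79 UMIs) at 5 months, 9.83 CPM (7.58 to 12.5, 65 UMIs) in tumour 1 and 51.7 CPM (44.8 to 59.4, 200 UMIs) in tumour 2. Ptprc barcodes had 132 CPM (124 to 141) at 5 months, 27.9 CPM (24.96 to 31.2) in tumour 1 and 64.2 CPM (57.3 to 71.8) in tumour 2. The keratin level was below the Ptprc level of the same library in all 3, at 28.0%, 35.2% and 80.6% of it, and the intervals overlapped in tumour 2. The 2 classes' ranges over libraries overlapped, since the tumours differed from each other in both classes.

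Keratin and Ptprc barcodes were compared in 6 sums from the 5 months, tumour 1 and tumour 2 libraries with library as a block (edgeR quasi-likelihood test, 2 residual degrees of freedom). Trp53, the cell cycle inhibitor gene Cdkn1a, the feedback genes Mdm2 and Ccng1, the death genes Bax and Apaf1 and the sestrin gene Sesn1 were lower in keratin barcodes. Perp, Plk2, Phlda3 and Ddit4l were higher. These are 4 members higher and 7 lower of the 28 that passed the count filter, at an adjusted p under 0.05, where 25.8% of the 12314 genes tested passed (12.7% higher and 13.1% lower). The 11 called members are 39.3% of those tested. An unadjusted p under 0.05 was found for 15 of the 28 members and for 4638 of the 12314 genes. The median log2 fold change was -0.10 over the members and -0.0045 over all genes tested. Eda2r and Pidd1 did not pass the filter, with at most 1.81 CPM in these sums. By plain CPM, 9 of 30 members were lower and 8 higher in keratin barcodes of all 3 libraries. With the scaling used in the test, 9 of the 28 tested were lower and 6 higher in all 3. The share of all genes on the same side in all 3 was not counted, so nothing particular to the members is read from this. The contrast is one of tissue lineage as well as of targeted alleles, and these cannot be told apart. The libraries are different stages, so p-values measure only how far their class ratios scatter.

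**Figure D1:**
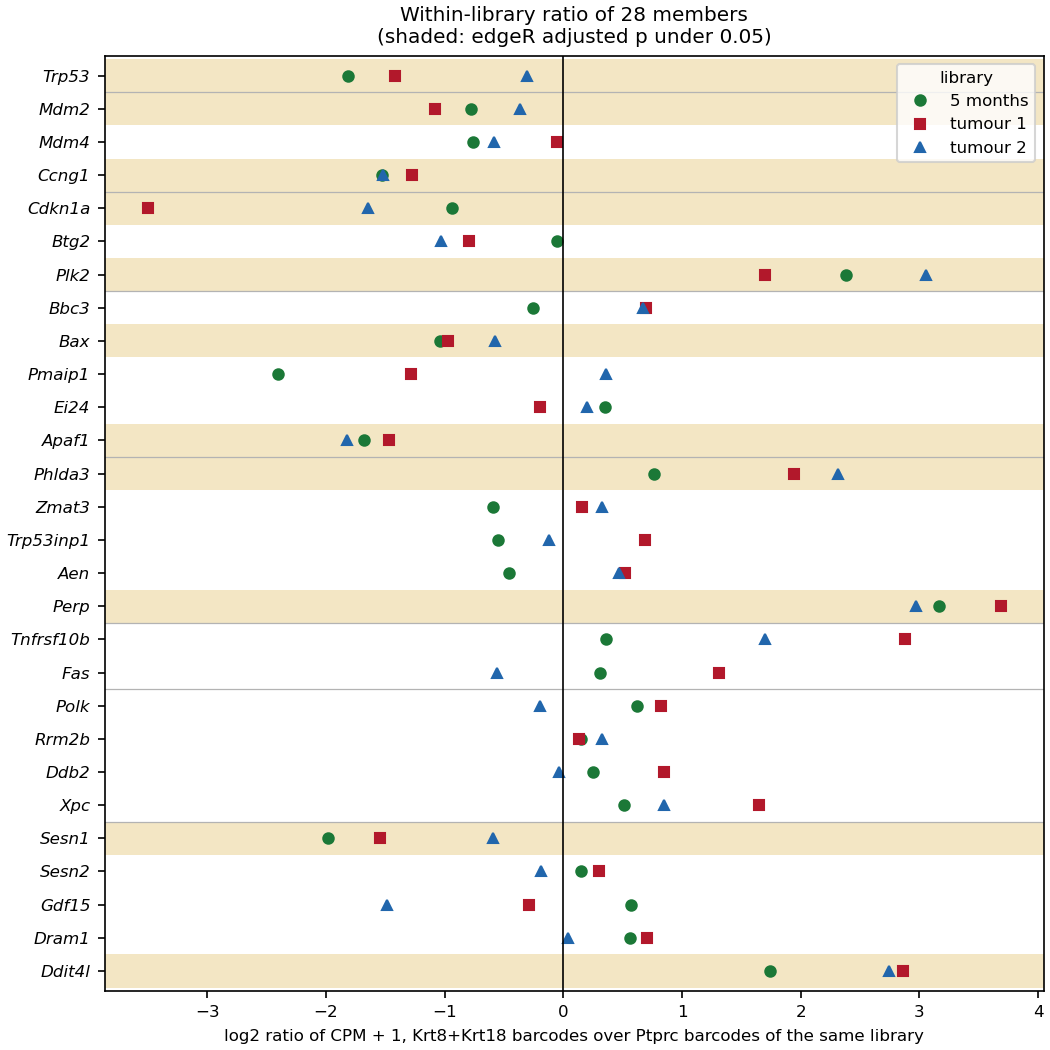
Log2 ratio of CPM + 1 in keratin barcodes over Ptprc barcodes of the same library (x axis) for the 28 members tested, ordered by role, 1 symbol per library; shaded rows passed edgeR's adjusted p threshold of 0.05. Ccng1 and Apaf1 have 3 close points left of 0 and Perp and Plk2 3 points far right of it, while Cdkn1a spreads from -3.50 in tumour 1 to -0.93 at 5 months.

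Trp53 was 2.68-fold lower in keratin barcodes (log2 fold change -1.42 ± 0.36 SE, edgeR adjusted p = 0.0275, lower in 3 of 3 libraries). Without tumour 1 the adjusted p was 0.105, and over 14 other settings it ran from 0.00318 to 0.239.

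Of the 3 feedback genes, Ccng1 and Mdm2 were lower and Mdm4 did not pass. Ccng1, a cyclin-like partner of a phosphatase that acts on Mdm2, had 35.3, 18.7, 16.6 and 12.9 CPM in keratin barcodes at 2 weeks, at 5 months, in tumour 1 and in tumour 2. Its Ptprc barcodes had 55.8 CPM at 5 months, 41.7 CPM in tumour 1 and 38.9 CPM in tumour 2, so no keratin value reached a Ptprc value. The difference was 3.25-fold (log2 -1.70 ± 0.27 SE, edgeR adjusted p = 0.00494), and Ccng1 passed under all 14 other settings. Mdm2, the ubiquitin ligase, had 61.3, 43.0, 40.7 and 64.9 CPM in keratin barcodes of the 4 libraries in the same order. Ptprc barcodes had 74.5 CPM at 5 months, 87.1 CPM in tumour 1 and 84.0 CPM in tumour 2, again with no overlap, but the gap was small (1.95-fold, log2 -0.96 ± 0.27 SE, edgeR adjusted p = 0.0393). Without tumour 1 the adjusted p of Mdm2 was 0.229 and without tumour 2 it was 0.136, within a range of 0.0097 to 0.835. Mdm4, which binds p53 without degrading it, had 20.6 to 24.6 CPM in keratin barcodes and 23.9 to 37.3 CPM in Ptprc barcodes of the 3 libraries, lower in each (log2 -0.68 ± 0.29 SE, edgeR adjusted p = 0.135).

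The arrest genes went in both directions. Cdkn1a, the gene of the cyclin-dependent kinase inhibitor p21, lies at chr17:29090976-29100727 and carries the decamer pairs printed above. In keratin barcodes Cdkn1a had 252 CPM at 2 weeks, 111 CPM at 5 months, 37.5 CPM in tumour 1 and 127 CPM in tumour 2. Ptprc barcodes had 213 CPM at 5 months, 435 CPM in tumour 1 and 400 CPM in tumour 2. Every keratin value of these 3 libraries lay below every Ptprc value, by the widest margin in tumour 1, where keratin barcodes had 8.62% of the Ptprc level. Cdkn1a was 4.68-fold lower (log2 -2.23 ± 0.53 SE, edgeR adjusted p = 0.0226). The size rested on single libraries, with a log2 fold change of -1.49 without tumour 1, -2.85 without 5 months and -2.41 without tumour 2. Without tumour 2 its adjusted p was 0.0659, and over 14 settings it ran from 6.8e-05 to 0.066.

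Plk2, a polo-like kinase, had 141, 71.5, 80.9 and 186 CPM in keratin barcodes of the 2 weeks, 5 months, tumour 1 and tumour 2 libraries. Its Ptprc barcodes had 12.9 CPM at 5 months, 24.3 CPM in tumour 1 and 21.4 CPM in tumour 2. Plk2 was thus 4.68-fold higher (log2 2.23 ± 0.34 SE, edgeR adjusted p = 0.00431) with no overlap, and passed under all 14 other settings. Btg2, an antiproliferative gene that is also an immediate early gene, had 337 CPM in keratin barcodes at 5 months, 51.6 CPM in tumour 1 and 103 CPM in tumour 2. Its Ptprc barcodes had 349 CPM at 5 months, 90.3 CPM in tumour 1 and 212 CPM in tumour 2, and the difference did not pass (edgeR adjusted p = 0.087). Btg2 passed as lower in 2 of 14 other settings (adjusted p 0.00628 to 0.666), the first of these being without 5 months (log2 -1.19).

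**Figure D2:**
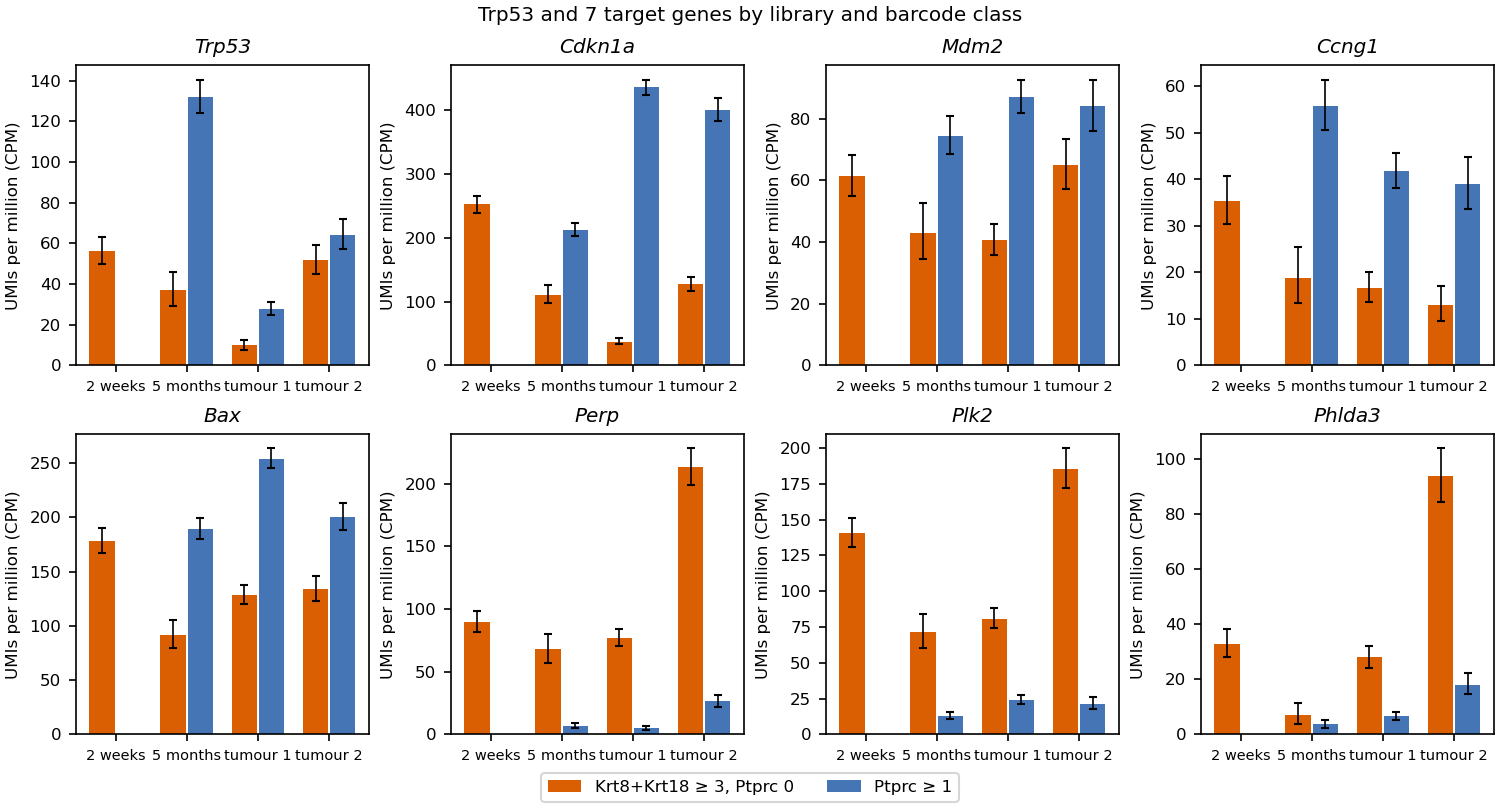
CPM (y axis, from 0) of Trp53 and 7 targets in keratin barcodes (orange) and Ptprc barcodes (blue) of each library (x axis); bars are class sums and error bars 95% Poisson intervals, and 2 weeks has no Ptprc bar because only 7 barcodes qualified. Cdkn1a, Mdm2, Ccng1 and Bax stand lower in keratin barcodes of the 3 libraries with both classes, and Perp, Plk2 and Phlda3 higher.

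In the mitochondrial death pathway 2 of 5 tested members were lower and none higher, where 13.1% of all genes tested were lower and 12.7% higher. Nothing particular to the pathway is read from so few genes. Bax, which opens the outer mitochondrial membrane, had 178, 91.6, 129 and 134 CPM in keratin barcodes of the 2 weeks, 5 months, tumour 1 and tumour 2 libraries. Ptprc barcodes had 190 CPM at 5 months, 254 CPM in tumour 1 and 200 CPM in tumour 2, all above the keratin values. Bax was 2.11-fold lower (log2 -1.08 ± 0.25 SE, edgeR adjusted p = 0.0205), with adjusted p of 0.115 without tumour 1 and 0.107 without tumour 2, in a range of 0.00348 to 0.279.

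Apaf1, the scaffold of the apoptosome, had 5.66, 3.27, 6.20 and 4.91 CPM in keratin barcodes, against 12.7, 19.0 and 19.96 CPM in Ptprc barcodes of the 5 months, tumour 1 and tumour 2 libraries. The 3 keratin sums held 7, 41 and 19 Apaf1 UMIs, yet the classes did not overlap (4.14-fold lower, log2 -2.05 ± 0.33 SE, edgeR adjusted p = 0.0054). Without tumour 2 its adjusted p was 0.0517, in a range of 0.000197 to 0.0517. Pmaip1, the gene of the BH3-only protein Noxa, had 11.2 CPM in keratin barcodes at 5 months, 9.22 CPM in tumour 1 and 65.7 CPM in tumour 2. Its Ptprc barcodes had 63.8 CPM at 5 months, 23.9 CPM in tumour 1 and 51.0 CPM in tumour 2. Pmaip1 was therefore on the low side in 2 libraries and on the high side in tumour 2 (edgeR adjusted p = 0.119). It passed as lower in 4 of 14 other settings (adjusted p 0.0254 to 0.471), among them without tumour 2. Bbc3, the gene of the BH3-only protein Puma, spanned 17.8 to 29.5 CPM in keratin and 12.7 to 21.5 CPM in Ptprc barcodes, and Ei24 26.6 to 45.5 CPM in keratin and 30.7 to 39.5 CPM in Ptprc barcodes. Neither passed (edgeR adjusted p = 0.715 and 0.846).

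Among the other death and survival genes, Perp and Phlda3 were higher. Perp, a p53 target that is also a desmosome component of epithelia, had 89.9, 67.8, 77.0 and 213 CPM in keratin barcodes of the 2 weeks, 5 months, tumour 1 and tumour 2 libraries. Ptprc barcodes had 6.66 CPM at 5 months, 5.05 CPM in tumour 1 and 26.3 CPM in tumour 2. Perp was 9.28-fold higher (log2 3.21 ± 0.31 SE, edgeR adjusted p = 0.00103) and passed under all 14 other settings. In Ptprc barcodes it stood at 9.83%, 6.56% and 12.4% of the keratin level, beside 4.45%, 8.41% and 10.8% for the epithelial gene Epcam. The part of epithelial RNA in these Ptprc values of Perp was not tested.

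Phlda3, an inhibitor of the kinase Akt, had 33.0, 7.01, 28.0 and 93.9 CPM in keratin barcodes, against 3.73, 6.53 and 18.1 CPM in Ptprc barcodes of the 5 months, tumour 1 and tumour 2 libraries. It was higher in each library, but the classes' ranges overlapped (3.17-fold, log2 1.67 ± 0.37 SE, edgeR adjusted p = 0.0167). The adjusted p of Phlda3 was 0.0677 without tumour 1 and 0.171 without tumour 2, in a range of 0.000847 to 0.199. Zmat3, Trp53inp1 and Aen did not pass and were on different sides in different libraries.

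No death receptor or repair gene passed, though Tnfrsf10b and Xpc did in some other settings. Tnfrsf10b, a receptor of the ligand TRAIL, had 6.08, 8.92 and 8.28 CPM in keratin barcodes and 4.53, 0.348 and 1.85 CPM in Ptprc barcodes of the 5 months, tumour 1 and tumour 2 libraries. It was higher in 3 of 3 libraries without overlap (log2 2.04 ± 0.79 SE, edgeR adjusted p = 0.107). Tnfrsf10b passed as higher in 5 of 14 other settings (adjusted p 0.005 to 0.425), including DESeq2 (0.0435) and the fit without 5 months (log2 3.03, edgeR adjusted p = 0.005). Fas, the receptor of Fas ligand, had 21.3 to 25.1 CPM in keratin barcodes and 8.01 to 37.5 CPM in Ptprc barcodes (edgeR adjusted p = 0.81). Xpc, a damage sensor of nucleotide excision repair, had 9.35, 22.1 and 17.1 CPM in keratin barcodes and 6.26, 6.35 and 9.06 CPM in Ptprc barcodes, higher in 3 of 3 libraries (edgeR adjusted p = 0.119). Xpc passed as higher in 2 of 14 other settings (adjusted p 0.0439 to 0.545), one of them without 5 months (0.0471). Polk, Rrm2b and Ddb2 had edgeR adjusted p of 0.661, 0.967 and 0.692. The last exon of Ddb2 overlaps Acp2 on the other strand.

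Of the stress and metabolism genes, Ddit4l was higher and Sesn1 lower. Ddit4l, an inhibitor of mTOR signalling, had 13.4, 2.34, 15.1 and 29.2 CPM in keratin barcodes of the 2 weeks, 5 months, tumour 1 and tumour 2 libraries. Ptprc barcodes had 0 UMIs at 5 months, which allows up to 0.400 CPM taken as 3 counts or 0.491 CPM by the Poisson interval, 1.22 CPM in tumour 1 and 3.50 CPM in tumour 2. The 5 months keratin value rests on 5 UMIs and lay below that of the tumour 2 Ptprc barcodes. The fitted log2 fold change was 3.32 ± 0.55 SE (edgeR adjusted p = 0.0056, higher in 3 of 3 libraries). Without the library block the adjusted p of Ddit4l was 0.129, in a range of 5.71e-06 to 0.129. Sesn1, a sestrin that restrains mTORC1, had 6.22, 2.81, 1.81 and 5.69 CPM in keratin barcodes, against 13.99, 7.22 and 9.06 CPM in Ptprc barcodes of the 5 months, tumour 1 and tumour 2 libraries. The classes did not overlap (3.50-fold lower, log2 -1.81 ± 0.45 SE, edgeR adjusted p = 0.0277), but the 3 keratin sums held 6, 12 and 22 UMIs of Sesn1. Without tumour 1 its adjusted p was 0.126, in a range of 0.00115 to 0.126. Sesn2, Gdf15 and Dram1 did not pass (edgeR adjusted p 0.625 to 0.844).

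The leukocytes behind the Ptprc sums differed between libraries. Ptprc barcodes with at least 1 UMI of Cd3e, a T cell receptor subunit gene, numbered 885 of 2348 at 5 months, 19 of 1518 in tumour 1 and 104 of 733 in tumour 2. Those with no Cd3e and at least 3 UMIs of Tyrobp, an adaptor gene of myeloid and natural killer cells, numbered 458, 1438 and 527. Cdkn1a had 149, 209 and 230 CPM in the Cd3e barcodes of these libraries and 404, 461 and 458 CPM in the Tyrobp barcodes. Both sets lay above the keratin values of 111, 37.5 and 127 CPM. Trp53 had 149, 45.3 and 72.7 CPM in Cd3e barcodes and 86.5, 28.1 and 61.4 CPM in Tyrobp barcodes, all above the keratin value of the same library. The tumour 1 Cd3e value rests on 5 UMIs (14.7 to 105.8 CPM). In tumour 2 the keratin interval (44.8 to 59.4 CPM) overlapped those of Cd3e (52.8 to 97.5) and Tyrobp barcodes (53.7 to 69.9).

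These splits were chosen after the values were seen. Against Cd3e barcodes, Cdkn1a was lower in keratin barcodes by a log2 fold change of -1.11 (edgeR adjusted p = 0.0124), and against Tyrobp barcodes by -2.70 (edgeR adjusted p = 0.0034). Trp53, Ccng1, Apaf1, Perp, Plk2, Phlda3 and Ddit4l kept their direction and passed in both. Some of these Cd3e values lie at the floor, since Ddit4l had 0 UMIs in the Cd3e barcodes of each library. In tumour 1 the Cd3e barcodes held 1 UMI each of Apaf1, Plk2 and Phlda3 and 4 UMIs of Perp. Mdm2 was lower against Tyrobp barcodes (-1.36, edgeR adjusted p = 0.0097), but its log2 fold change against Cd3e barcodes was 0.14 (edgeR adjusted p = 0.835). In Mdm2 the Tyrobp barcodes had 131, 90.1 and 93.6 CPM and the Cd3e barcodes 49.7, 45.3 and 41.3 CPM, against 43.0, 40.7 and 64.9 CPM in keratin barcodes. The tumour 1 Cd3e value of Mdm2 rests on 5 UMIs. Bax did not pass against Cd3e barcodes (edgeR adjusted p = 0.279), nor Sesn1 against Tyrobp barcodes (edgeR adjusted p = 0.0808). Trp53inp1 and Btg2 also passed as lower against Cd3e barcodes (edgeR adjusted p = 0.00826 and 0.0311), and Tnfrsf10b and Xpc as higher against Tyrobp barcodes (edgeR adjusted p = 0.0289 and 0.0439).

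Of 18 genes upstream of p53 or in its family, 16 were tested in the same class contrast, 2 were higher and 0 lower in keratin barcodes, where 12.7% of all genes tested were higher and 13.1% lower. Cdkn2a, whose ARF product blocks Mdm2, had 11.7, 510 and 583 CPM in keratin barcodes and 8.93, 54.4 and 74.1 CPM in Ptprc barcodes of the 5 months, tumour 1 and tumour 2 libraries (log2 2.14 ± 0.57 SE, edgeR adjusted p = 0.0341). These UMIs are counted per gene, so the part from ARF RNA is not known. Ppp1r13l, which encodes the p53 inhibitor iASPP, had 16.4, 9.22 and 12.4 CPM in keratin barcodes and 1.07, 3.31 and 3.09 CPM in Ptprc barcodes (log2 2.15 ± 0.55 SE, edgeR adjusted p = 0.0307).

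Of 18 further p53 targets 16 were tested, with 2 higher and 3 lower, where 25.8% of all genes tested were called. Nothing particular to either list is read from these counts. The cytokine gene Lif (log2 2.23 ± 0.51 SE, edgeR adjusted p = 0.0193) and the thiamine transporter gene Slc19a2 (1.43 ± 0.41 SE, 0.0419) were higher. The nuclear body gene Pml (log2 -1.46 ± 0.37 SE, edgeR adjusted p = 0.0293), the phosphatase gene Ptp4a3 (-2.63 ± 0.36 SE, 0.00303) and the lipid transfer gene Pltp (-3.48 ± 0.37 SE, 0.00133) were lower. None of 8 mitotic genes that p53 lowers through Cdkn1a passed. Those 8 genes together had 529, 42.1, 274 and 101 CPM in keratin barcodes of the 2 weeks, 5 months, tumour 1 and tumour 2 libraries, so they and Cdkn1a were both highest at 2 weeks.

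Across stages no member passed in keratin barcodes. The 2 tumours are the only replicates (1 residual degree of freedom), a lone library was assumed to vary as they do, and neither tumour comparison called any of 12352 genes (0%). At an unadjusted p under 0.05, edgeR had 1883 genes for tumours against 2 weeks and 1017 against 5 months, and DESeq2 called 527 and 137 after adjustment. Of 29 members tested against 2 weeks, 4 had an unadjusted p under 0.05, beside 1883 of 12352 genes. Nothing particular to the members is read from this count. Trp53inp1, a stress-induced autophagy and death gene, had 18.0 and 21.7 CPM in tumour 1 and tumour 2, against 108 CPM at 2 weeks (log2 -2.36 ± 0.48 SE, edgeR adjusted p = 0.114). Fas had 21.3 and 25.1 CPM in the tumours, against 4.34 CPM at 2 weeks (2.50 ± 0.61 SE, edgeR adjusted p = 0.157). Dram1, a lysosomal autophagy gene, had 14.7 and 11.6 CPM in the tumours, against 1.32 CPM from 7 UMIs at 2 weeks (edgeR adjusted p = 0.152). Polk, a translesion polymerase, had 9.37 and 4.91 CPM in the tumours, against 25.8 CPM at 2 weeks (edgeR adjusted p = 0.295).

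Against 5 months, Phlda3 had 28.0 and 93.9 CPM in tumour 1 and tumour 2, against 7.01 CPM (edgeR adjusted p = 0.489). Btg2 had 51.6 and 103 CPM in the tumours, against 337 CPM at 5 months (edgeR adjusted p = 0.375). Ddit4l and Sesn2 were the other members with an unadjusted p under 0.05, where 1017 of 12352 genes had one. In Ptprc barcodes, tumours against 5 months called 0 of 28 members and 1 of 12332 genes (0.00811%). The test of whether tumour minus 5 months differed between the classes called 0 of 29 members and 1.04% of 13226 genes (0.189% higher, 0.854% lower). Cdkn1a gave the direction of a fall in keratin barcodes relative to Ptprc barcodes (log2 -1.71 ± 0.69 SE, edgeR adjusted p = 0.292). Keratin barcodes had 111 CPM of Cdkn1a at 5 months, 37.5 CPM in tumour 1 and 127 CPM in tumour 2. Ptprc barcodes had 213, 435 and 400 CPM in the same order, and the Tyrobp barcodes among them 404, 461 and 458 CPM. The part of the leukocyte mix in this was not tested. Cdkn2a passed in the other direction (log2 2.65 ± 0.51 SE, edgeR adjusted p = 0.0453).

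**Figure D3:**
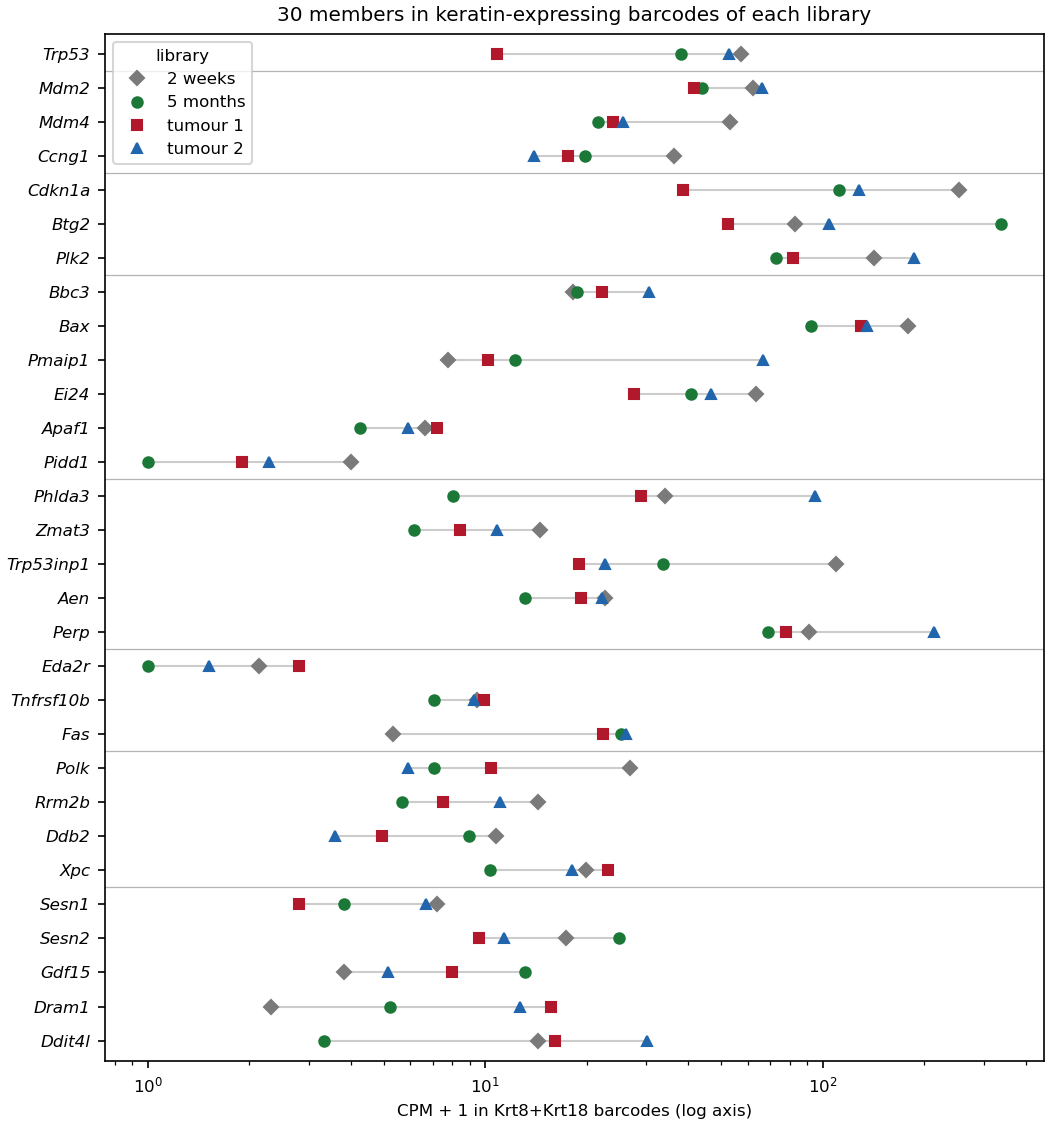
CPM + 1 (log x axis) of all 30 members in keratin barcodes, ordered by role, with 1 symbol per library and a line over their range. Tumour 1 (squares) is the lowest point for Trp53, Cdkn1a and Btg2, 2 weeks (diamonds) is the highest for Trp53inp1, Polk and Mdm4, and 5 months the highest for Btg2 and Sesn2.

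The 5 months and 2 weeks keratin barcodes are 1 library each, so genes are listed by size with no test, at least 2-fold apart after adding 1 TMM-scaled CPM and at least 20 CPM in the higher. Of the 16 members that reached 20 CPM, 2 were higher and 5 lower at 5 months, where 28.9% of 5879 genes passed (15.9% higher, 13.0% lower). Fas had 25.7 against 4.09 and Btg2 355 against 77.3 TMM-scaled CPM at 5 months and 2 weeks. Cdkn1a had 117 against 238, Mdm4 21.7 against 49.1, Phlda3 7.40 against 31.1, Trp53inp1 34.5 against 102 and Polk 6.41 against 24.4. The median log2 ratio was -0.68 over these members and -0.01 over all genes. Cdkn1a sits at the threshold, 2.02-fold apart.

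Several members stood lower in tumour 1 than in tumour 2. By the same size rule on plain CPM, chosen after the values were seen, 0 of 17 members that reached 20 CPM were higher and 6 were lower in tumour 1 than in tumour 2, where 9.07% of 5735 genes were higher and 9.99% lower. They were Pmaip1 (9.22 against 65.7 CPM), Trp53 (9.83 against 51.7), Cdkn1a (37.5 against 127), Phlda3 (28.0 against 93.9), Perp (77.0 against 213) and Plk2 (80.9 against 186). Bax had 129 and 134 CPM in tumour 1 and tumour 2, and Mdm4 had 23.0 and 24.6 CPM. In Ptprc barcodes Trp53 was also lower in tumour 1 than in tumour 2, at 27.9 against 64.2 CPM, whereas Cdkn1a had 435 against 400 CPM. Keratin barcodes of tumour 1 had a median of 14704 UMIs and those of tumour 2 of 8296, and summed fibroblast markers were 230 and 15.0 CPM. The part of these in the difference was not tested.

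At 2 weeks, 161 barcodes were neither keratin nor Ptprc barcodes, and they held more Trp53 RNA than any other class in any library. This comparison was chosen after the values were seen and has no replicate. Trp53 had 413 CPM (375 to 453) in the remaining barcodes, against 56.2 CPM (49.98 to 62.9) in keratin barcodes, 7.23-fold apart after adding 1 CPM. Of 19 members that reached 20 CPM, 10 were at least 2-fold higher and 3 lower, where 43.6% of 6501 genes passed (24.7% higher, 19.0% lower). The higher ones included Aen, a p53-induced nuclease (154 against 21.7 CPM), Ccng1 (185 against 35.3), Bax (813 against 178), Phlda3 (139 against 33.0) and Mdm2 (134 against 61.3). Ddit4l, Bbc3, Pmaip1 and Zmat3 were the others. The lower ones were Trp53inp1 (42.6 against 108 CPM), Plk2 (59.2 against 141) and Polk (11.1 against 25.8).

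Cdkn1a did not follow, at 211 CPM in the remaining barcodes against 252 CPM in keratin barcodes. Summed basal markers were 802 CPM in the remaining and 104 CPM in keratin barcodes, fibroblast markers 602 and 226 CPM, and endothelial markers 142.5 and 13.6 CPM. The 8 mitotic genes summed to 1124 and 529 CPM. Epithelial markers summed to 355 and 12872 CPM, a gap set in part by the class rule, since Krt8 and Krt18 are among them. Leukocyte markers summed to 85.1 and 2.83 CPM. The part of these other cells and of cycling in the member differences was not tested.

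**Figure D4:**
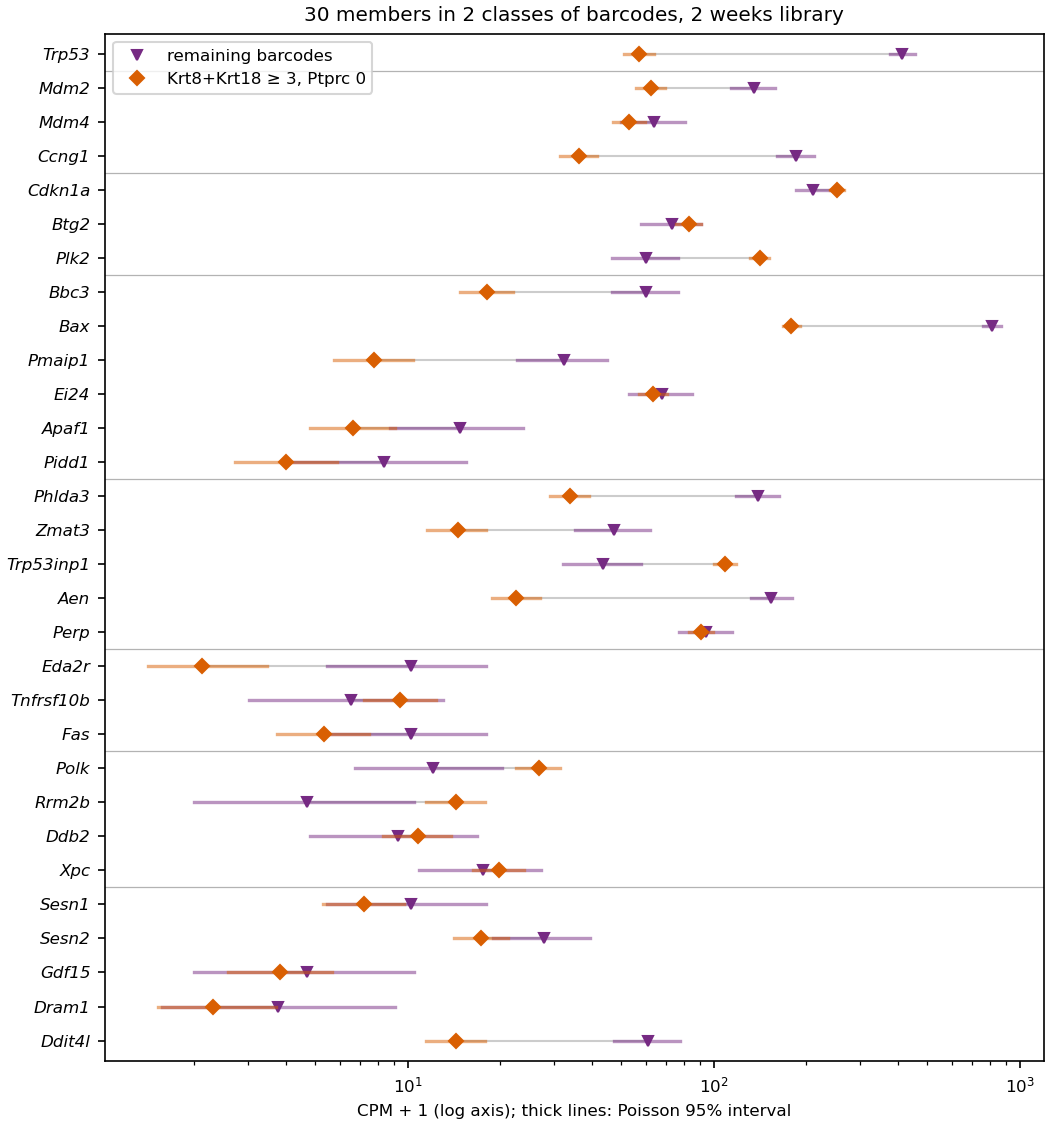
CPM + 1 (log x axis) of the 30 members in the 161 remaining barcodes (triangles) and the 1133 keratin barcodes (diamonds) of the 2 weeks library, with 95% Poisson intervals as thick lines. Trp53, Aen, Ccng1 and Bax stand far to the right in the remaining barcodes, while Cdkn1a, Btg2 and Perp lie close together in both.

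Counted per barcode after thinning each to 2000 UMIs, Trp53 was seen in 9.09% of keratin barcodes at 2 weeks (exact 95% interval 7.36 to 11.1), 7.69% at 5 months (5.29 to 10.7), 1.76% in tumour 1 (0.712 to 3.60) and 9.64% in tumour 2 (6.97 to 12.9). Ptprc barcodes gave 23.5% (21.3 to 25.8), 6.65% (5.45 to 8.03) and 11.3% (9.12 to 13.8) in the 5 months, tumour 1 and tumour 2 libraries. Cdkn1a was seen in 28.7%, 14.6%, 5.29% and 20.7% of keratin barcodes of the 4 libraries, and in 29.0%, 51.1% and 42.6% of Ptprc barcodes of the last 3. Thinning left out 154 and 28 keratin barcodes at 2 weeks and 5 months and 897 Ptprc barcodes at 5 months, which were shallower. Before thinning, median UMIs of keratin barcodes were 4163, 4550, 14704 and 8296 and Trp53 was seen in 20.04%, 15.8%, 13.1% and 34.5%. Ptprc barcodes had medians of 2346, 6773 and 6024 UMIs, with Trp53 in 31.4%, 18.1% and 30.4%. As a measure of stray epithelial RNA, thinned Ptprc barcodes showed Epcam in 6.89%, 2.57% and 9.28%. No class here is known to lack Trp53, so its stray share in keratin barcodes was not measured. Summed leukocyte markers there stood at 2.95%, 2.44% and 3.46% of the Ptprc level in the 5 months, tumour 1 and tumour 2 libraries, and Trp53 at 28.0%, 35.2% and 80.6%.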

How the data were processed

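Per the labels' protocols, the single-cell libraries used the 10x Chromium 3′ v2 chemistry. Per the submitters' processing notes, Cell Ranger (version not given in the sources used here) and the mouse build mm10 (GRCm38) were used. As deposited, the values are UMI counts per gene and barcode, which the authors had not normalized. The 4 libraries held 1453, 4836, 2712 and 1780 barcodes with 6722044, 15060411, 23736366 and 13061942 UMIs (2 weeks, 5 months, tumour 1, tumour 2), and a further 694 genes listed for 5 months alone were left out. Doublets were not called: 47, 62 and 50 Ptprc barcodes of the last 3 libraries also had 3 keratin UMIs or more and stayed with the Ptprc class.

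UMI counts were summed per library and class and tested with edgeR 4.0.16 (filterByExpr, TMM factors, quasi-likelihood F test, Benjamini-Hochberg over all genes tested, 0.05). The code was checked beforehand on simulated counts with less spread between sums than these data. That check therefore does not measure the error rate here. DESeq2 1.42.0, library size and RLE scaling, no low-count filter, other class rules, no block and leaving out each library were alternatives. The 2 weeks library entered the class contrast as an alternative only. Nothing states that the 2 tumours came from separate mice, so p-values measure only the spread between these samples, which may be technical. Members were all accounted for, and full values are given for Trp53, Cdkn1a, Mdm2, members past the threshold and members at least 2-fold to 1 side in every library, while further members are given where a result is described. The members and all lists were chosen with earlier results of these data known. The 18 upstream, 18 further target and 8 mitotic genes and the marker lists (8 epithelial, 9 leukocyte, 6 fibroblast, 5 endothelial, 5 basal) were fixed by name. In the class contrast 0 of 6 fibroblast markers were higher and 2 lower, 0 of 2 tested endothelial markers changed, and 1 of 2 tested basal markers was higher. Gene positions are from GENCODE M21 and promoter windows from RefSeq, both on GRCm38.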

Additional observations from a re-analysis of the deposited data

How the results depend on the processing

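No paired analysis was possible because the compared stages share fewer than 2 replicate numbers; library was the block between classes. In the class contrast (4 members higher, 7 lower), leaving out 1 library gave 3 to 6 higher and 3 to 8 lower (3 lower without tumour 1, 4 without tumour 2), and no library block gave 2 higher and 4 lower. Genes called, 3181 in all, came to 2051 without tumour 1, 1863 without tumour 2 and 1751 without the block. Of the 11 called members, 3 (Ccng1, Perp, Plk2) passed under each of 14 alternatives. The share of all called genes that did so was not counted, so nothing particular to the members is read from this. The 14 include the Cd3e and Tyrobp splits, chosen after the values were seen, and a fit that uses the 7 Ptprc barcodes of 2 weeks. The one reversal was Mdm2 against Cd3e barcodes (log2 0.14). Library size scaling moved the median log2 fold change of all genes from -0.0045 to 0.204 without reversing the sign of a called member. Mdm2 no longer passed under it (log2 -0.754, edgeR adjusted p = 0.083), and passed in 7 of the 14 alternatives. For keratin tumours against 2 weeks (0 members, 0 genes), library size scaling and DESeq2 each called 1 member lower, Trp53inp1, and no low-count filter 3 higher (Pmaip1, Fas, Dram1) and 1 lower. Genes called were 134 with all barcodes, 210 with stricter classes, 609 with little leukocyte RNA, 544 with library size scaling, 39 (RLE), 1262 (no filter) and 527 (DESeq2). For tumours against 5 months, little leukocyte RNA called 1 member lower (Btg2), and no filter 2 higher (Phlda3, Ddit4l) and 1 lower (Btg2), with 17, 39, 171, 128, 548 and 137 genes under all barcodes, stricter classes, little leukocyte RNA, library size, no filter and DESeq2. For Ptprc barcodes, no filter called 1 higher (Ddit4l) and 2 lower (Trp53, Trp53inp1), with 1 gene in the chosen fit, 0 under stricter classes and library size, 2 under RLE, 1471 with no filter and 478 with DESeq2. In the interaction, little leukocyte RNA called 1 member higher (Pmaip1) and no filter 1 higher (Pmaip1) and 1 lower (Cdkn1a), with 279, 511 and 706 genes under stricter classes, little leukocyte RNA and no filter. The cause of these changes was not tested. Leaving out a tumour leaves the stage fits without residual degrees of freedom, so they give no calls. Thinning set the share of barcodes with a UMI. Trp53 in keratin barcodes gave 20.04%, 15.8%, 13.1% and 34.5% unthinned and 5.31%, 3.48%, 0.252% and 5.54% at 1000 UMIs (2 weeks, 5 months, tumour 1, tumour 2), and in Ptprc barcodes 31.4%, 18.1% and 30.4% unthinned and 12.9%, 2.70% and 5.32% at 1000 UMIs. Cdkn1a in keratin barcodes gave 43.7%, 29.2%, 31.0% and 48.7% unthinned and 19.1%, 10.7%, 2.52% and 13.3% at 1000 UMIs, and in Ptprc barcodes 77.5% and 63.6% unthinned in the tumours and 15.4%, 32.7% and 26.3% at 1000 UMIs. Cdkn1a at 5 months against 2 weeks stayed under 2-fold with all deposited barcodes (log2 -0.91).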
